A study of Mus musculus with 4 samples.

Results

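Integrins are paired surface receptors, each made of 1 alpha and 1 beta subunit, that bind cells to the matrix and to ligands on other cells. The genes described here are the integrin subunits and a set of other adhesion molecules by which blood stem and progenitor cells lodge in, and leave, the bone marrow niche. They were chosen by name: every gene whose symbol starts with Itga or Itgb and continues with a subunit number or letter, without the binding protein genes Itgb1bp1, Itgb1bp2 and Itgb3bp, plus Cd44, Cd47, Selp, Selplg, Sele, Icam1, Icam2, Vcam1, Pecam1, Jam2, Jam3 and Cdh2. This gave 39 of the 22180 genes named on the array, 27 with integrin symbols and 12 others. Only genes with a probe set assigned to that gene alone could enter, so all 39 were measured. Left out were 2 probe sets that list a gene of the rule together with other genes. No filter on low values was applied. The rule takes in Itgbl1, which resembles a beta subunit but is not one.

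The study measured RNA on 4 Affymetrix arrays, 1 for each sample, of LSK cells (lineage-negative, Sca1-positive and c-Kit-positive marrow cells, which include the blood stem cells and multipotent progenitors). The 2 WT samples came from wild-type mice and the 2 KO samples from mice with a knockout of SRC-3, a transcriptional coactivator encoded by Ncoa3. All mice were males of 8 weeks. Marrow of femur and tibia was freed of red cells by lysis, stained and sorted. The labels name neither the strain nor the knockout allele, nor whether other cells of the animal also lack SRC-3, nor how many mice a sample holds. They call the samples biological replicates without saying whether these came from separate animals. The p-values here rest on the spread between the 2 samples of a genotype, moderated in limma by the spread over all genes. The spread between such samples may be partly technical. The question was which genes differ in these cells without SRC-3. Ncoa3 itself read 7.76 and 7.05 on the WT arrays and 5.35 and 5.09 on the KO arrays (log2), a difference of -2.19 ± 0.27 (SE, limma adjusted p = 0.038).

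In blood cells the subunit Itgb2 pairs with leukocyte alpha subunits such as Itgal and Itgam to bind ICAM ligands. Itga4 pairs with Itgb1 or Itgb7 to bind VCAM1 and fibronectin, and Itgav pairs with Itgb3, Itgb5 and others to bind vitronectin-like matrix. Integrins switch between a low-affinity and a high-affinity shape under signals from inside the cell, so RNA levels are only 1 part of adhesion. In marrow, Itga4 and Cd44, a receptor for hyaluronan, are known for holding progenitors to stroma, and selectin ligands such as Selplg for rolling on vessel walls.

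None of the 39 genes passed the threshold over all genes (limma, Benjamini-Hochberg adjusted p under 0.05), in either direction. Over all genes 0.397% were higher and 0.113% lower at that threshold. At an unadjusted p under 0.05, 8 adhesion genes were lower in KO and 1 was higher. That is 20.5% and 2.56% of the members, where 6.93% of all genes were lower and 10.5% higher by the same rule. The lower ones were the integrin subunits Itga2, Itgam, Itgb5, Itgav and Itgb4 and the receptors Cd44, Jam3 and Pecam1, and the higher one was Itgb2. Their adjusted p-values in limma ran from 0.058 for Itga2 to 0.24 for Jam3. The counts moved with single arrays. With 1 array left in a genotype the spread comes from the other pair alone. The KO pair was tighter, with a median distance of 0.150 over all genes beside 0.227 for the WT pair. Counts from such fits therefore cannot be compared with those from all 4 arrays. Leaving out WT replicate 1 gave 7 lower and 6 higher, where 7.57% of all genes were lower and 16% higher. Leaving out WT replicate 2 gave 13 and 1, beside 12.3% and 14% of all genes. Leaving out KO replicate 1 gave 2 lower and 0 higher in limma, beside 2.86% and 3.77%, and leaving out KO replicate 2 gave 4 and 0, beside 4.22% and 4.39%.

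Both KO arrays lay below both WT arrays for 15 members, or 38.5%, against 22.9% of all genes. They lay above both WT arrays for 4 members, Itgb2, Itgb7, Itgb2l and Vcam1, or 10.3%, against 25.1% of all genes. The median difference over the 39 genes was -0.13 on the log2 scale, beside -0.001 over all genes, and after quantile normalization it was -0.011 beside 0.065. Among the 21 members at or above the median gene's signal of 4.32, the median was -0.21 and 15 had a lower mean in KO, while all genes at or above that signal had a median of 0.045. The 18 dimmer members had a median of -0.012, with 9 lower and 9 higher means.

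**Figure D1:**
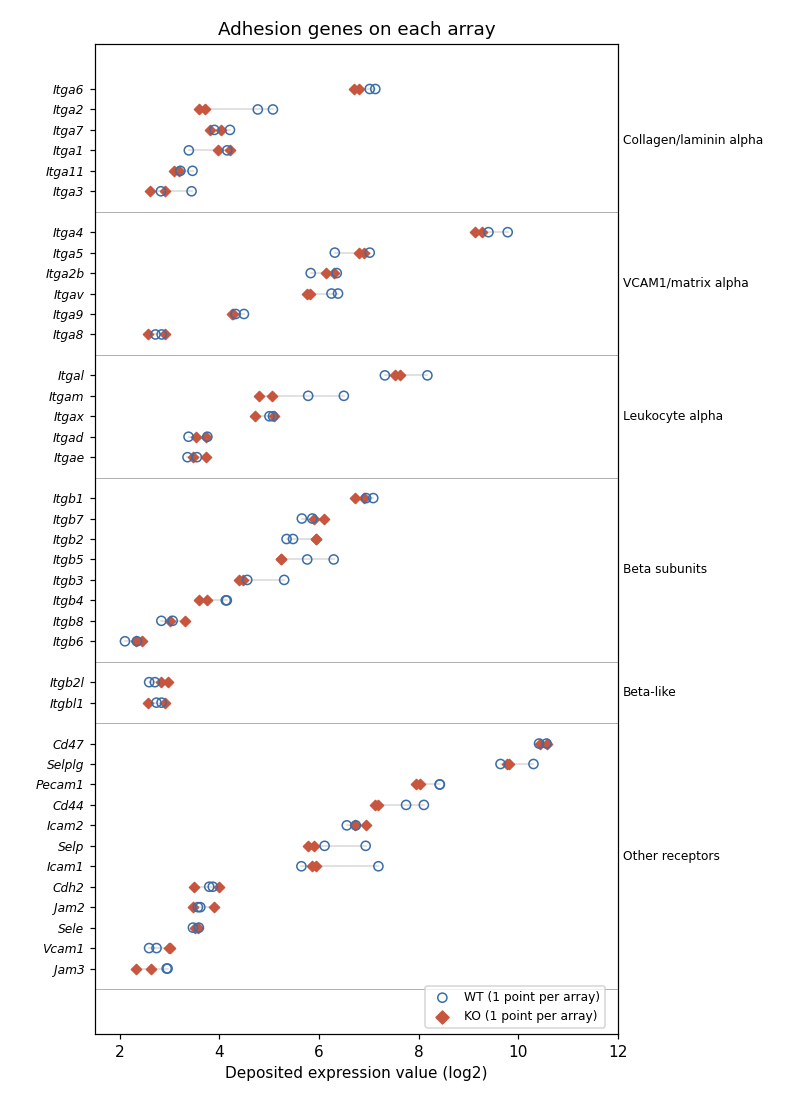
Deposited log2 values of the 39 adhesion genes, grouped by role, with 1 open circle for each WT array and 1 diamond for each KO array. The KO diamonds of Itga2, Itgam, Itgb5 and Cd44 lie below both WT circles, those of Itgb2 lie above, and the WT circles of Icam1 lie farther apart (7.19 and 5.65) than those of any other gene shown.

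Upstream sequence was sought for Itga2, Itgam, Itgb5, Cd44, Itgb2 and Pecam1, and none was available for Itgb2 and Pecam1. The 4 genes shown had the lowest means relative to WT among the genes past an unadjusted p of 0.05 in limma. The windows are the 250 bases before the RefSeq start in build GRCm38.p6, on the gene's own strand. Of the 39 members, 24 matched this table, with 27 windows in all. Capitals mark the letters of 5 short motifs, searched on both strands and allowed to overlap. They are GAGGAA, known as a PU.1 site, AGATAA, known as a site of GATA factors, TGTGGT, known as a RUNX site, GGGCGG, known as an SP1 site, and TGANTCA, known as an AP-1 site. The Itga2 window is chr13:114932101-114932350 on the minus strand, the Itgam window chr7:128062390-128062639 on the plus strand, the Itgb5 window chr16:33829415-33829664 on the plus strand and the Cd44 window chr2:102901666-102901915 on the minus strand.
Itga2: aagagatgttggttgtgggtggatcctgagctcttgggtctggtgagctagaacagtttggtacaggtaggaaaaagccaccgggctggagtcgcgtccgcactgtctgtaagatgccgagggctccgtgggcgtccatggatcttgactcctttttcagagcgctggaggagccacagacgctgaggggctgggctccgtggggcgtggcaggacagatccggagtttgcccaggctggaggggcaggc
Itgam: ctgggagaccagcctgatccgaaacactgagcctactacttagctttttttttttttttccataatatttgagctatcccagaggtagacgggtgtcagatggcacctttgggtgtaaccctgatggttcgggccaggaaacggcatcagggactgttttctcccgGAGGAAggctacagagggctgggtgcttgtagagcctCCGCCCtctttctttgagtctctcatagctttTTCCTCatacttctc
Itgb5: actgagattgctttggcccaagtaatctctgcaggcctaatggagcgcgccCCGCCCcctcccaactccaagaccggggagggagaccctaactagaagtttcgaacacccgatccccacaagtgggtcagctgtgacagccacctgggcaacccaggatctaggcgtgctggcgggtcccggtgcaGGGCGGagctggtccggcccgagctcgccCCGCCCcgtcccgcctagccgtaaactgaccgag
Cd44: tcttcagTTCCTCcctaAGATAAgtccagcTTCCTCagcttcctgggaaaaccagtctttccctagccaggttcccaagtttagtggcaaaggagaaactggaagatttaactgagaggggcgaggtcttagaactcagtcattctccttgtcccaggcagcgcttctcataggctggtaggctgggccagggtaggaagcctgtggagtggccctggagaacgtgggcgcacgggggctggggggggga

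No motif was found in all 4 windows. The Itgam window held 2 PU.1 matches and 1 SP1 match, the Cd44 window 2 PU.1 matches and 1 GATA match, and the Itgb5 window 3 SP1 matches. None of the 5 motifs was found in the Itga2 window. Over the 27 member windows, 11 held the PU.1 letters and 11 the SP1 letters, 40.7% each, where 23.3% and 32.7% of all 32851 windows of this length did. Cd47, Itga3 and Itgb6 entered with more than 1 window each, so these shares count windows and not genes. Both windows of Cd47 and both of Itga3 held the SP1 letters. GATA letters were in 2 member windows (9.99% of all windows), RUNX letters in 2 (14.0% of all) and AP-1 letters in 3 (6.75% of all). These are letter matches, and no binding was measured.

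Among the collagen and laminin receptors, Itga2 had the lowest difference of all 39 genes. Itga2 (gene identifier 16398, probe set 17296355) encodes the collagen-binding subunit known as CD49b, which also marks NK cells and platelets. It read 4.77 and 5.07 on the WT arrays and 3.71 and 3.59 on the KO arrays. The KO pair lay more than 1 log2 unit below the WT pair. The difference was -1.27 ± 0.19 (SE), or 2.42-fold lower, with an unadjusted p of 0.000352 and an adjusted p of 0.058 in limma. Across 9 alternative settings it ran from -1.43 to -1.12. It was under the adjusted threshold when arrays were shifted to a common median (limma adjusted p = 0.028). With a replicate block or after quantile normalization it was not (limma adjusted p = 0.054 and 0.056).

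The Itga2 signal was near that of the median gene in WT and below it in KO, where differences measured on such arrays are compressed. Itga1, the other classical collagen subunit, overlapped between genotypes at 4.15 and 3.38 in WT and 3.96 and 4.21 in KO. The laminin subunit Itga6, a stem cell surface marker, read 7.13 and 7.02 in WT and 6.71 and 6.79 in KO. Its KO arrays lay below its WT arrays, at a difference of -0.32 ± 0.17 (SE, limma adjusted p = 0.39). Itga3, Itga7 and Itga11 were dim and had differences between -0.37 and -0.13.

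Itga4, the VCAM1-binding subunit, was bright and lower in mean without passing either threshold. It read 9.79 and 9.40 in WT and 9.27 and 9.14 in KO. The arrays of the genotypes did not overlap, but the nearest WT and KO values were closer than the WT values were to each other. The difference was -0.39 ± 0.18 (SE, limma adjusted p = 0.33), with a 95% interval from -0.82 to 0.04. Without WT replicate 1 it was -0.20 and without WT replicate 2 -0.58. Of its partners, Itgb1 was at -0.21 ± 0.18 (SE, adjusted p = 0.61 in limma) and Itgb7, which pairs with Itga4 for gut homing, at 0.24 ± 0.19 (SE, adjusted p = 0.57). The differences between the subunits' changes were not tested.

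The 3 vitronectin receptor subunits Itgav, Itgb5 and Itgb3 had lower means in KO, that of Itgb3 mainly through WT replicate 1. Itgav, the shared alpha subunit, read 6.25 and 6.38 in WT and 5.82 and 5.76 in KO. Itgb5 read 6.29 and 5.76 in WT and 5.24 on both KO arrays. Itgb3 read 5.30 and 4.56 in WT and 4.48 and 4.39 in KO. For all 3 genes the KO arrays lay below the WT arrays, narrowly so for Itgb3. The difference was -0.53 ± 0.17 for Itgav (limma adjusted p = 0.20), -0.79 ± 0.22 for Itgb5 (adjusted p = 0.16) and -0.50 ± 0.27 for Itgb3 (SE, adjusted p = 0.40). Without WT replicate 1 Itgb5 was at -0.53 and Itgb3 at -0.13, and without WT replicate 2 they were at -1.06 and -0.87. A second, much dimmer Itgav probe set gave -0.34 ± 0.15 (SE, limma adjusted p = 0.32).

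Itga2b, the platelet fibrinogen receptor subunit that pairs with Itgb3, overlapped between genotypes. It read 6.36 and 5.83 in WT and 6.14 and 6.31 in KO, and the 95% interval of the difference ran from -0.41 to 0.68. The fibronectin receptor subunit Itga5 also overlapped, at 7.02 and 6.32 in WT and 6.89 and 6.79 in KO, with an interval from -0.44 to 0.80. Itga8, which binds nephronectin, was dim and at -0.03, and Itga9, a relative of Itga4 with a signal near that of the median gene, was at -0.14. Itgb4, which pairs with Itga6 in epithelium, read 4.13 and 4.15 in WT and 3.58 and 3.75 in KO, a difference of -0.47 ± 0.17 (SE, limma adjusted p = 0.22) at a dim signal.

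The leukocyte integrin subunits went in different directions. Itgam (gene identifier 16409, probe set 17483577), the CD11b subunit of the complement receptor on myeloid cells, read 6.50 and 5.78 on the WT arrays and 4.797 and 5.06 on the KO arrays. Both KO values were below both WT values. The difference was -1.21 ± 0.27 (SE), or 2.32-fold lower, with an adjusted p of 0.11 in limma. Its partner Itgb2 (gene identifier 16414), the beta subunit it shares with Itgal, read 5.48 and 5.35 in WT and 5.93 and 5.94 in KO. Here both KO values were above both WT values, and the difference was 0.52 ± 0.17 (SE, limma adjusted p = 0.20). The difference between the 2 subunits' changes was not tested.

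Itgal, the CD11a subunit that binds ICAM1, read 8.18 and 7.32 in WT and 7.62 and 7.53 in KO. Both KO values lay between the WT values, and the 95% interval of -0.86 to 0.52 was wide. Itgax (CD11c) and Itgad (CD11d) overlapped, at differences of -0.13 and 0.06. Itgae, the CD103 subunit of mucosal T cells, was at 0.15 and overlapped as well. The beta subunits Itgb6 and Itgb8, known from epithelium and for activating TGF-beta, were dim, at 0.17 and 0.21. Itgb2l, a close relative of Itgb2, was dim at 0.25, and Itgbl1 was at -0.05.

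CD11b is part of the lineage stain of many LSK sorts, and in bulk samples fewer cells of a type and less RNA per cell cannot be told apart. At the unadjusted threshold 7 of 12 neutrophil markers were higher and 0 were lower in limma, where 10.5% of all genes were higher and 6.93% lower. The mean log2 level of that list was 4.96 and 5.26 in WT and 5.79 and 5.84 in KO, opposite to Itgam. S100a8, a calcium-binding protein gene of neutrophils, was at 1.501 ± 0.298 (SE, limma adjusted p = 0.090). Of 15 macrophage and dendritic cell markers 4 were higher and 0 lower at the unadjusted threshold. They were the class II genes H2-Aa, H2-Ab1 and H2-Eb1 and the iron exporter gene Slc40a1. Of these 4, 3 also passed the adjusted threshold in limma, as 0.397% of all genes did upward. They were H2-Aa at 1.730 ± 0.174, H2-Eb1 at 1.475 ± 0.176 and Slc40a1 at 1.605 ± 0.191 (SE). The list means were 5.13 and 5.18 in WT and 5.56 and 5.59 in KO. The other 11 markers of that list had differences from -0.26 to 0.34, with means of 4.68 and 4.72 in WT and 4.72 and 4.77 in KO. Vcam1 is both a member and on that list. Below the lower quartile of all genes by signal were Retnlg and Ly6g of the neutrophil list and Vcam1 of the macrophage list. The part of such cells in the Itgb2 and Itgam values was not tested.

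**Figure D2:**
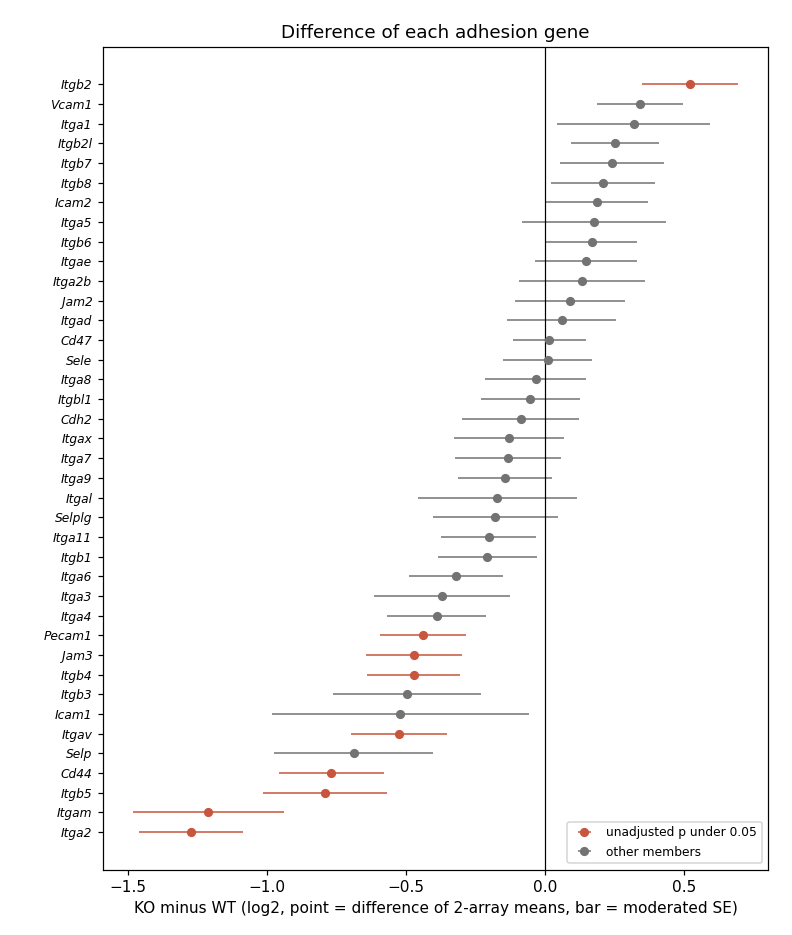
KO minus WT for each of the 39 adhesion genes on the log2 scale, ordered by size, with moderated SE bars from limma. The 9 genes at an unadjusted p under 0.05 run from -1.27 for Itga2 to 0.52 for Itgb2, and 8 of them lie below 0.

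Among the other receptors and ligands, Cd44, the hyaluronan receptor that also scaffolds selectin ligands, had the lowest difference. Cd44 (gene identifier 12505) read 8.11 and 7.75 in WT and 7.19 and 7.12 in KO. The KO arrays lay below the WT arrays by more than the distance between the WT arrays. The difference was -0.77 ± 0.19 (SE), or 1.70-fold lower, with an adjusted p of 0.13 in limma. Without WT replicate 1 it was -0.59 and without WT replicate 2 -0.95. With KO replicate 1 or KO replicate 2 left out it was -0.80 and -0.74.

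Pecam1, the CD31 receptor of endothelium, platelets and progenitors, had nearly equal values within each genotype. It read 8.43 and 8.42 in WT and 8.03 and 7.94 in KO, a difference of -0.44 ± 0.15 (SE, limma adjusted p = 0.22). With the replicate number as a block it was no longer at an unadjusted p under 0.05. Jam3, a junctional adhesion molecule known from stem cells, read 2.96 and 2.94 in WT and 2.32 and 2.63 in KO, at -0.47 ± 0.17 (SE, adjusted p = 0.24). Jam3 lay below the lower quartile of all genes by signal, and its value was -0.31 without KO replicate 1. Jam2, its partner on vessels, overlapped at a difference of 0.09.

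Selp, the P-selectin of platelets and endothelium, was just outside the unadjusted threshold. It read 6.94 and 6.11 in WT and 5.89 and 5.78 in KO. The KO arrays lay below both WT arrays, but WT replicate 1 stood well above the other 3. The difference was -0.69 ± 0.29 (SE) with an unadjusted p of 0.0502 and an adjusted p of 0.29 in limma. Without WT replicate 1 it was -0.28 and without WT replicate 2 -1.10. Selplg, the main P-selectin ligand on blood cells, read 10.3 and 9.65 in WT and 9.83 and 9.77 in KO, so the KO values lay between the WT values (95% interval -0.72 to 0.36). A second Selplg probe set gave -0.13 ± 0.27 (SE). Sele, the endothelial E-selectin, was dim and at 0.01.

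Cd47, the signal that protects cells from being engulfed, lay at nearly the same level in both genotypes. It read 10.6 and 10.4 in WT and 10.6 and 10.4 in KO, and the 95% interval of the difference ran from -0.30 to 0.33. Icam1, a ligand of the Itgb2 integrins, read 7.19 and 5.65 in WT and 5.93 and 5.86 in KO. The distance between its WT arrays was larger than the difference of -0.52 ± 0.46 (SE, limma adjusted p = 0.63), which turned to 0.25 without WT replicate 1. Icam2, a ligand of the same integrins, overlapped at 0.19 ± 0.19 (SE). Vcam1, the ligand of Itga4, was dim, at 2.59 and 2.74 in WT and 3.02 and 2.99 in KO, a difference of 0.34 ± 0.16 (SE, limma adjusted p = 0.33). Cdh2, a cadherin proposed for niche contact, was at -0.09 and overlapped.

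Several genes discussed here also mark platelets, endothelium or NK cells. Over all genes 10.5% were higher and 6.93% lower at the unadjusted threshold. In lists this short, counts of 0 or 1 lie near that share. At the unadjusted threshold 1 of 9 measured platelet and megakaryocyte markers was higher and 1 was lower, the chemokine gene Pf4 and the calmodulin-binding protein gene Nrgn, with list means of 4.37 and 4.62 in WT and 4.62 and 4.63 in KO. Of 12 endothelial and stromal markers 0 were higher and 1 lower in limma, the pericyte receptor gene Pdgfrb at -1.51 ± 0.27 (SE), with list means of 4.08 and 4.20 in WT and 4.02 and 4.002 in KO. Of 10 T and NK cell markers 0 were higher and 1 lower, with list means of 3.97 and 4.29 in WT and 4.11 on both KO arrays. The lower one was Klrb1c, the NK1.1 antigen gene, which was dim and at -0.85 ± 0.18 (SE, limma adjusted p = 0.10). The NK receptor gene Ncr1 was at 0.45 ± 0.20 and Nkg7, a bright gene of that list, at 0.44 ± 0.18 (SE). In that list 5 markers had a higher mean in KO and 5 a lower one. Of these lists, Ppbp, Clec1b, Lepr, Dcn, Cd3g, Cd8a and Gzma lay below the lower quartile by signal. Their part in the values of Itga2, Selp and Pecam1 was not tested.

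Markers of red cell precursors, mast cells and B cells were measured as well. Over all genes 0.397% were higher at the adjusted threshold. At the unadjusted one 10.5% were higher and 6.93% lower. Of 5 measured erythroblast markers 3 rose at the adjusted threshold in limma, the blood group gene Ermap at 3.97 ± 0.29 and the membrane protein gene Rhag at 3.67 ± 0.24 (SE, adjusted p = 0.009 for both), and the tetraspanin gene Tspan33. The list means were 3.89 and 3.92 in WT and 5.58 and 5.71 in KO. Slc4a1, the anion exchanger of red cells, was at -0.96. Of 10 mast cell and basophil markers 1 rose, the granzyme gene Gzmb at 1.97 ± 0.27 (SE, limma adjusted p = 0.049), and at the unadjusted threshold 3 were higher and 0 lower. Those list means were 4.63 and 4.87 in WT and 5.32 and 5.15 in KO, and Fcer1a and Cma1 lay below the lower quartile by signal. Of 8 B cell markers 0 were higher and 3 lower by the unadjusted rule in limma, the immunoglobulin joining chain gene Jchain at -1.715 ± 0.256 (SE, adjusted p = 0.059), Ebf1 and Cd79a. List means were 4.76 and 4.92 in WT and 4.54 and 4.48 in KO, with Ms4a1 below the lower quartile. The part of such cells in the adhesion values was not tested.

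Of the genes that define the sort, Kit, which encodes c-Kit, was measured. Kit read 10.3 and 9.65 in WT and 9.43 and 9.34 in KO, at -0.60 ± 0.23 (SE, limma adjusted p = 0.25). Cd34, a sialomucin of progenitors that is also an adhesion molecule, read 10.9 and 10.7 in WT and 10.2 and 10.1 in KO, at -0.68 ± 0.13 (SE, adjusted p = 0.085). Kit and Cd34 belong to a list that joins Kit with progenitor markers outside the sort as defined above. Of its 5 measured genes, 3 were lower and 0 higher by limma at the unadjusted threshold. By that rule 6.93% of all genes were lower and 10.5% higher. The 3 lower ones were Kit, Cd34 and the cytokine receptor gene Flt3, the last at -1.21 ± 0.27 (SE, limma adjusted p = 0.11). Slamf1 and Cd48 had higher means in KO, at 0.176 ± 0.173 and 0.142 ± 0.135 (SE). The mean log2 level of the list was 9.43 and 9.16 in WT and 8.885 and 8.83 in KO. Ly6a, which encodes Sca1, was not analysed here.

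**Figure D3:**
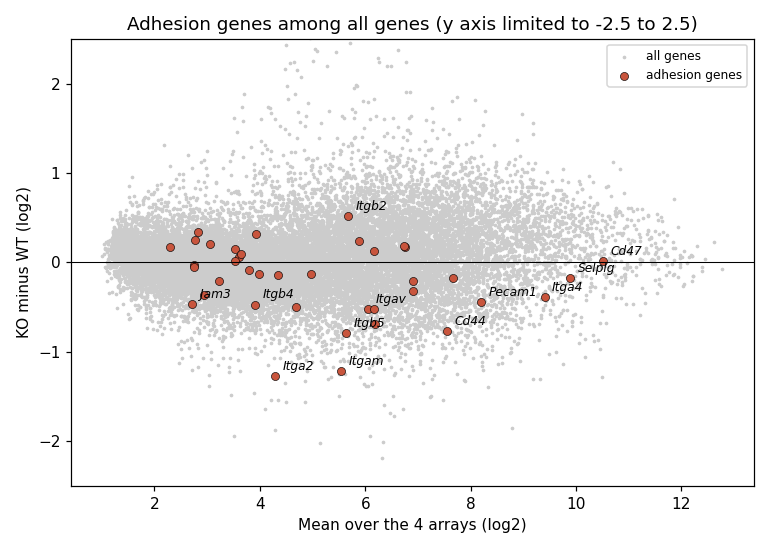
KO minus WT against the mean over the 4 arrays, both in log2, for all 22180 genes (grey) and the 39 adhesion genes (red). Itga2 and Itgam lie below -1, while the bright genes Cd47 and Selplg lie near 0.

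WT replicate 1 stood apart from WT replicate 2 for these genes. It was the highest of the 4 arrays for 15 of the 21 brighter members, or 71.4%, against 36.9% of all genes at or above the median signal. It exceeded WT replicate 2 by over 0.5 for 10 of the 39 members, or 25.6%, against 9.27% of all genes. These 10 genes were Icam1, Itgal, Selp, Itga1, Itgb3, Itgam, Itga5, Selplg, Itgb5 and Itga2b. Among the 21 brighter members it did so for 9, or 42.9%, against 16.8% of all genes at or above the median signal. No member differed by over 0.5 between the KO arrays. Of all 22180 genes, 672 were higher by that much on KO replicate 1 and 1120 on KO replicate 2. Without WT replicate 2, 10 members were lower at an adjusted p under 0.05 in limma, where 5.73% of all genes were. Without WT replicate 1 there were 2, Cd44 and Itga2, where 1.41% of all genes were lower. In the latter fit Itgal, Selplg and Icam1 had higher means in KO. With KO replicate 1 or KO replicate 2 left out, 0 members passed in limma, and 2 and 4 were at an unadjusted p under 0.05.

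**Figure D4:**
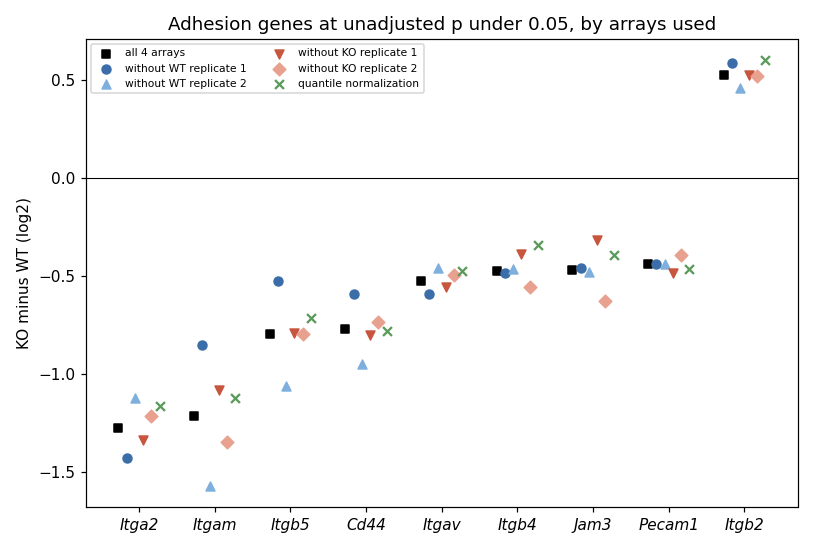
KO minus WT (log2) of the 9 genes at an unadjusted p under 0.05, with all arrays, with each array left out and after quantile normalization. All 9 keep their side of 0, which was fixed in advance for the left-out arrays because their KO and WT arrays do not overlap. Itgam moves the most, from -0.85 without WT replicate 1 to -1.57 without WT replicate 2.

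Adhesion genes are long, and long genes had lower values in KO. The median RefSeq span of the 39 members was 55.9 kb, against 16.3 kb over all genes. Among genes at or above the median signal, split into 3 equal classes by span, the shortest class had a median difference of 0.17 and the longest, over 35.6 kb, a median of -0.12. In that longest class 16% of all genes were lower at the unadjusted threshold. It held 12 adhesion genes, 5 of them lower, with a median of -0.41. The middle class held 8 adhesion genes with a median of 0.001, beside 0.10 over all its genes. The part of gene span in the adhesion values was not tested.

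Genes that act with integrins were taken from 5 lists, of which 104 genes were measured, and none of them passed the adjusted threshold in limma. For comparison, 50.2% of all genes had a lower mean in KO, with 6.93% past the unadjusted threshold downward and 10.5% upward. Of 23 genes for integrin activation and adapters, which link the beta tail to actin, 2 were higher and 3 lower by the unadjusted rule, with a median of -0.12. Itgb1bp1, which competes with talin at the Itgb1 tail, was at 0.78 ± 0.22 (SE, limma adjusted p = 0.16) and Parvb, a parvin of the kinase-adapter complex, at 0.57 ± 0.18. Tns1, a tensin, was at -0.61 ± 0.20 and Actn1, an actinin, at -0.46 ± 0.18 (SE). The third lower gene, named after its value was seen, was the zyxin gene Zyx at -0.75 ± 0.31 (SE). Itgb1bp1 read 5.43 and 5.94 in WT and 6.52 and 6.40 in KO.

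Rap1 is the small GTPase through which signals inside the cell switch integrins on. Of 20 genes of this list 18 had a lower mean in KO, 3 were lower and 0 higher by that rule in limma, and the median was -0.21. Rassf5, the Rap1 effector that activates Itgal, read 7.97 and 7.42 in WT and 6.94 and 6.99 in KO, at -0.73 ± 0.22 (SE, limma adjusted p = 0.18). Cyth1 and Cytip, a regulator of Itgb2 adhesion and its binding protein, were at -0.60 ± 0.23 and -0.48 ± 0.17 (SE).

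Of 21 ligand and matrix genes 17 had a lower mean, with a median of -0.19 and 3 lower and 0 higher at the unadjusted threshold in limma. Fn1, fibronectin, was at -0.59 ± 0.17 and the laminin chains Lamb2 and Lama5 at -0.63 ± 0.17 and -0.49 ± 0.18 (SE), all near the median gene's signal.

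Among 13 tetraspanins and other lateral partners 1 was lower and 0 were higher by the unadjusted rule, with a median of 0.095. Cd53, a leukocyte tetraspanin, read 9.30 and 9.39 in WT and 8.40 and 8.48 in KO, at -0.91 ± 0.15 (SE, limma adjusted p = 0.065). Cd9, a platelet and stem cell tetraspanin, was at 0.36 ± 0.17 (SE). Of 27 other adhesion and homing receptors 9 were lower and 4 higher, with a median of -0.23. Ncam1, a neural and NK cell adhesion molecule, was at 0.93 ± 0.19 (SE, limma adjusted p = 0.091), Clec2d, an NK receptor ligand, at 0.71 ± 0.19 and Prom1, a progenitor membrane protein, at 0.53 ± 0.16 (SE). Cd34, given above, was the lower gene of smallest p. The other lower genes and the fourth higher one were named after their values were seen. Esam, an endothelial and stem cell adhesion molecule, was at -0.76 ± 0.24, Robo4, a guidance receptor of stem cells and vessels, at -0.95 ± 0.39 and F11r, a relative of Jam2 and Jam3, at -0.77 ± 0.29 (SE). Cxcr4, the receptor that retains progenitors in marrow, was at -0.37 ± 0.13 and Alcam, an adhesion molecule of the immunoglobulin family, at -0.53 ± 0.17 (SE). Cd93, Cd244a and Ackr1 were lower by the same rule, and the fucosyltransferase gene Fut4, whose enzyme helps to make selectin ligands, was at 0.48 ± 0.17 (SE).

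**Figure D5:**
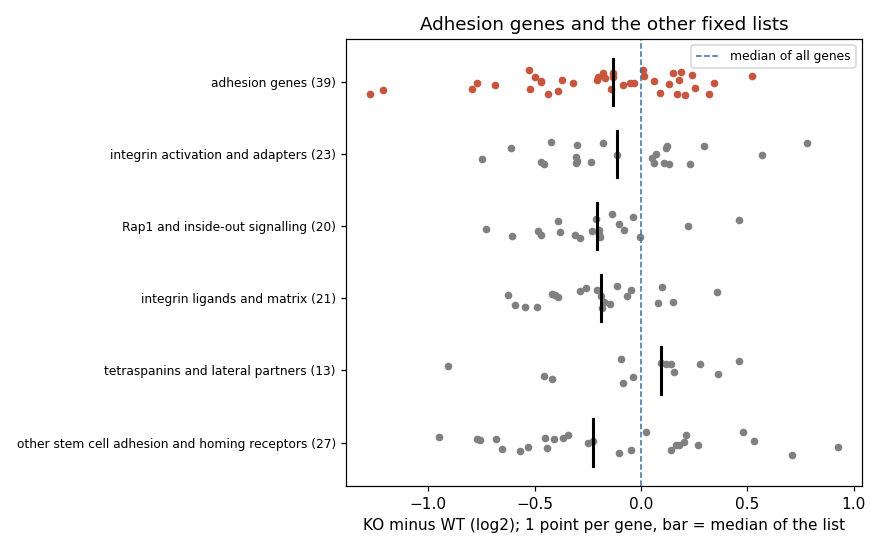
KO minus WT (log2) of the 39 adhesion genes and of the measured genes of 5 lists of integrin partners, 1 point per gene, with a bar at each list's median and a dashed line at the median of all genes. The medians run from -0.23 for other adhesion and homing receptors to 0.095 for tetraspanins, and every list has genes on both sides of 0.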

How the data were processed

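The data were 4 Affymetrix arrays of sorted mouse LSK cells, 2 WT and 2 KO. The authors deposited log2 expression values. Per the submitters' processing notes RMA and Affymetrix Expression Console 1.2.1 were used, with settings, filters and build not given in the sources used here. Values ran from 0.375 to 12.8. RMA compresses differences of dim probe sets. Detection calls and scan dates were not used here, so no gene could be called absent.

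Of 41345 probe sets, 23521 had 1 gene in the platform annotation. Each gene took its probe set of highest mean, which gave 22180 genes, and 3 members had more than 1 probe set. The fit used limma 3.58.1 (R 4.3.3), KO against WT, with an intensity trend, two-sided, adjusted by Benjamini-Hochberg over all genes at 0.05. Errors of differences are moderated SE, and intervals are 95%. On simulated data for this comparison (22180 genes, 200 changed), 5.52% of the genes with a true log2 change of 1 were called and 87.6% of those with a change of 2. The simulation gave both genotypes the same spread and each array independent noise. On the real arrays the WT pair spread more than the KO pair, so these rates may not hold for them.

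Members and lists were chosen with earlier results of these data known. Named genes were members at an unadjusted p under 0.05 or with signal at or above the upper quartile, their partner subunits, and up to 4 genes of smallest p in each list. Alternatives were a replicate block, quantile normalization, a common median, mean probe sets, a signal filter, no trend and each array left out. Gene spans and upstream windows came from RefSeq (GRCm38.p6). The spans and the spread between arrays were examined after the member values were seen. The arrays' number limits the precision. Replicate numbers in the labels are not tied to a shared batch, so samples were not paired. 1 further list of genes is not reported here.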

Additional observations from a re-analysis of the deposited data

How the results depend on the processing

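The 9 genes at an unadjusted p under 0.05 kept their direction in every alternative that measured them. With an array left out this was fixed in advance, because the KO and WT arrays of these genes did not overlap. It is therefore no measure of stability. Over all genes, 88 were higher and 25 lower at the adjusted threshold, and 142 and 47 were after quantile normalization, 196 and 51 with arrays shifted to a common median, and under the signal filter 208 and 81. With each array left out these counts ran from 0 to 1730 and from 0 to 1272. The adhesion genes lower at an unadjusted p under 0.05 were 5 of 21 under the signal filter and 2 to 13 of 39 with an array left out, and those higher were 2 after quantile normalization, 2 with a common median and 0 to 6 with an array left out. The members' median was -0.011 after quantile normalization, where all genes had 0.065, and -0.205 to -0.050 with an array left out. With the replicate number as a block 8 members were lower and 1 higher, the same counts as without it, but Pecam1 left the lower genes and Selp joined them, and the all-gene counts were 83 and 28, so no call on a member changed at the adjusted threshold. Same-numbered WT and KO arrays deviated together with a correlation of 0.11 across genes.

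After quantile normalization the difference changed sign for Cd47 (-0.038), Cdh2 (0.046), Itga7 (0.0004), Itga8 (0.048) and Itgbl1 (0.031), and with a common median for Itga8 (0.014). With each array left out, 15 members took both signs. The range was -0.0595 to 0.0909 for Cd47, -0.34 to 0.16 for Cdh2, -1.29 to 0.25 for Icam1, -0.0659 to 0.70 for Itga1, -0.13 to 0.39 for Itga2b, -0.17 to 0.53 for Itga5, -0.29 to 0.0221 for Itga7, -0.21 to 0.14 for Itga8, -0.13 to 0.25 for Itgad, -0.60 to 0.26 for Itgal, -0.32 to 0.0599 for Itgax, -0.22 to 0.11 for Itgbl1, -0.13 to 0.30 for Jam2, -0.0491 to 0.0695 for Sele and -0.51 to 0.15 for Selplg. The cause was not tested. With 1 array left in a genotype, that array is assumed to vary like the other pair. The KO pair was tighter than the WT pair, so p-values and counts from fits with 1 WT array can overstate the evidence.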
